A study of Mus musculus with 8 samples.

Results

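The genes described here are 32 genes of G2 and mitosis, chosen by symbol as mitotic kinases, cyclins, kinetochore genes and spindle genes, out of 24222 gene symbols in the count tables. All 32 were found, and all 32 passed the filter on low counts, which kept 11498 genes. The samples were haematopoietic stem cells sorted from the bone marrow of C57BL6 mice, 4 of them wild type (WT) controls and 4 with knockout of Kdm4a, Kdm4b and Kdm4c together (KO), sorted 2 weeks after induction. The 3 deleted genes code for demethylases that act on histone H3. Each mouse gave 1 RNA-seq library, made from amplified cDNA. The sort markers, the agent of induction, whether the WT mice also received it, and the mice's age are not stated in the sources used here. In bulk libraries such as these, a larger share of dividing cells and more of these transcripts per cell cannot be told apart.

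Most haematopoietic stem cells rest outside the cell cycle, and a minority divides at any time. Cells that do divide switch on a shared programme late in the cycle: cyclin A and B bind Cdk1 and drive entry into mitosis, Aurora and Polo kinases build the spindle, kinetochore proteins attach chromosomes to it, and the anaphase-promoting complex (APC/C) ends mitosis by destroying the cyclins. In resting cells many of these genes are held down by the DREAM complex, whose MuvB core recognises a promoter sequence called the cell cycle genes homology region (CHR). In dividing cells B-Myb and FoxM1 act on MuvB at the same promoters, often beside CCAAT boxes that bind NF-Y.

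The promoters below are those of 4 members, taken in order of their p in the KO against WT comparison among members with a CHR element upstream of the start. They are shown because CHR and CCAAT sequences were found in most of the members' promoters searched, and the rule that chose the members did not use them. Each is the 250 bases before the RefSeq gene start, from GRCm38.p6, read 5′ to 3′ on the gene's strand, here minus for all 4. Capitals mark CHR elements (TTTGAA or TTTAAA, or the reverse complement TTCAAA) and CCAAT boxes (CCAAT or ATTGG). Ckap2l is at chr2:129297213-129297462, Mki67 at chr7:135716380-135716629, Top2a at chr11:99024190-99024439 and Ccnb2 at chr9:70421555-70421804.
Ckap2l: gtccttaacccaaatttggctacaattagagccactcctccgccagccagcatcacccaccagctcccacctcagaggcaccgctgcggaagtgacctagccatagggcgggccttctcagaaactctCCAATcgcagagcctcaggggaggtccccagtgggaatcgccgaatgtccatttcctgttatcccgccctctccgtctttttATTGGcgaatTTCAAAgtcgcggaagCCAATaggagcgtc
Mki67: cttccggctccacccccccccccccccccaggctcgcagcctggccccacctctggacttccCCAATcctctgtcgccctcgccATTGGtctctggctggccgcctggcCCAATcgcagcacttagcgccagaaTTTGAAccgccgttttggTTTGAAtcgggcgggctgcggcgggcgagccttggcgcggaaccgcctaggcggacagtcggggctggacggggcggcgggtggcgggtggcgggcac
Top2a: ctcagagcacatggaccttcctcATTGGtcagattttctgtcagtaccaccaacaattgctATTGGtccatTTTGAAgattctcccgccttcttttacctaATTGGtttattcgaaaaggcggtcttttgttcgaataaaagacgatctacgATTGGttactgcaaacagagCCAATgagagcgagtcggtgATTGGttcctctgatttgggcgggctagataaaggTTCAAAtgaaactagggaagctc
Ccnb2: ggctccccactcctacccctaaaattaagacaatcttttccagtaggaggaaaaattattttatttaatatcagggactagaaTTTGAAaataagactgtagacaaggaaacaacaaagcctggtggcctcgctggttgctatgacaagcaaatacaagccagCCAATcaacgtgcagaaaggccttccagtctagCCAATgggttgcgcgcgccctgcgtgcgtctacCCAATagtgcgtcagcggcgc

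RefSeq promoters of 300 bases (250 before to 50 after the start) were matched by symbol for 28 of the 32 members; Ccna2, Aurkb, Kif20a and Tpx2 were not matched. A CHR element on either strand was found in 24 of the 28 (85.7%), against 18.9% of 8796 promoters of tested genes and 27.8% of all 27025 promoters. The form TTTGAA was found in 21 of the 28 and TTTAAA in 8. A CCAAT box was found in 22 of the 28 (78.6%), against 39.1% of the tested genes' promoters and 37.9% of all promoters, and 16 members held at least 2, where overlapping boxes on opposite strands counted separately. Both motifs together were found in 20 of the 28 (71.4%), against 7.65% of the tested genes' promoters. The matches clustered near the start. Of the 28 promoters, 11 had a CHR element starting in the last 50 bases before the start and 14 in the first 50 bases after it, shares of 39.3% and 50% against 2.88% and 1.92% of tested genes. Nusap1 and Tacc3 held neither sequence in this window, and Nek2 and Bub1 held CCAAT boxes only. These are matches of letters, with no measurement of binding in these mice.

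**Figure D1:**
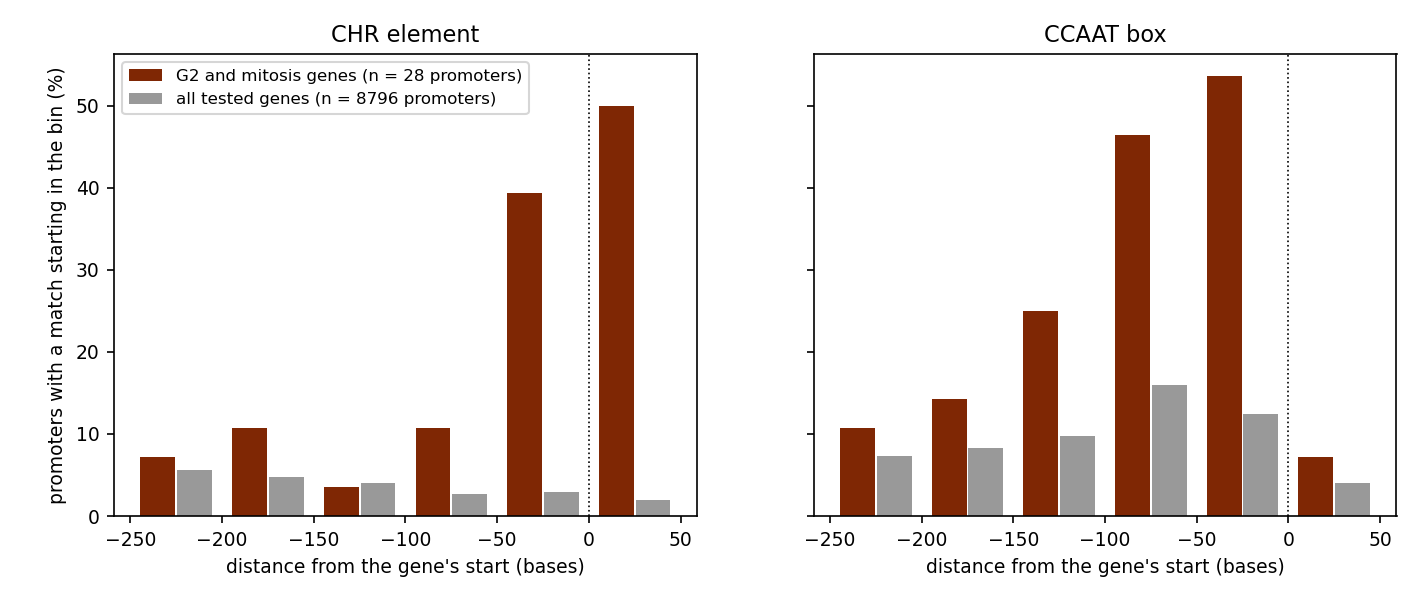
Share of promoters (y axis, percent) with a CHR element (left) or a CCAAT box (right) starting in each 50-base bin of distance from the gene's start (x axis), for 28 G2 and mitosis genes (brown) and 8796 tested genes (grey). CHR elements of the members lay mostly from 50 bases before to 50 bases after the start (39.3% and 50% of promoters), and CCAAT boxes in the last 100 bases before it (46.4% and 53.6%).

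Total counts were 3594315 to 6044289 in WT and 5541504 to 14872493 in KO, with KO mouse 3 the deepest and WT mouse 2 the shallowest library. Kdm4c, the most abundant of the 3 targets, was at 98.8 to 148 CPM (counts scaled to a common library total after TMM adjustment) in WT and 26.0 to 49.0 CPM in KO, and Kdm4a and Kdm4b were also lower in every KO mouse than in any WT mouse. The 14 stem cell markers listed, among them Hlf, Mecom, Slamf1 and Procr, all passed the filter, with a summed level of 4742 to 5133 CPM in WT and 4096 to 4599 CPM in KO, without overlap. Summed levels of the other marker lists were 207 to 258 and 199.7 to 244 CPM for 9 multipotent and lymphoid-primed progenitor markers in WT and KO, 31.3 to 58.7 and 34.6 to 79.0 CPM for 14 neutrophil and monocyte markers, and 21.5 to 45.2 and 31.96 to 52.6 CPM for 14 B, T and NK cell markers. The 10 macrophage and dendritic markers summed to 39.0 to 89.97 CPM in WT and 83.9 to 143 CPM in KO. Of the 4 that passed the filter, 2 had a fold above 1. Mean levels in WT and KO were 37.0 and 86.55 CPM for Cd74 and 6.58 and 19.9 CPM for Cd68. They were 6.09 and 0.989 CPM for Mrc1 and 7.75 and 2.69 CPM for Vcam1. The 8 mast cell, basophil and eosinophil markers summed to 3.64 to 15.1 and 4.86 to 8.49 CPM. The 12 erythroid markers summed to 134.9 to 167 and 129 to 149 CPM, and the 11 megakaryocyte markers to 1207 to 1554 and 1493 to 1757 CPM. Dntt, Cebpe, Fcnb, Cd3g, Ncr1, Siglech, Prss34 and the 4 globin genes listed were at 0 in all 8 libraries. Of these markers, edgeR's test over all genes called Gp1ba, Itga2b, Cd68 and Cd74 higher in KO and Mrc1 lower. Of all genes tested, 0.252% were called higher and 0.33% lower.

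Transcripts of the dividing cell were counted in every library of these sorted cells. The 32 genes together took 0.445% to 0.588% of a WT library and 0.539% to 0.766% of a KO library. Mki67, which encodes the Ki-67 protein that coats mitotic chromosomes and is the standard marker of cells in cycle, supplied 34.2% to 38.6% of that sum in each mouse, and Top2a, the topoisomerase that untangles replicated DNA, 14.4% to 16.5%. Per kilobase of annotated exon, Mki67 was also the most abundant member in WT, at 179 CPM per kilobase, followed by Top2a at 87.0 and the cyclin gene Ccnb2 at 46.6. The lowest were Kif20a at 3.81, Cenpa at 4.27 and Nek2 at 4.61 CPM per kilobase in WT. These ranks depend on the exon length summed over all annotated transcripts, 5860 bases for Cenpa, and the annotation used in counting is not known. By mean CPM in WT, Aurka was the lowest at 14.3, and Cenpa was at 25.0. Counts per member and library ran from 44 to 30330, so no member rested on single reads.

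No member passed the test over all genes, a count near the share of all genes called, while most fitted folds were above 1. By edgeR's quasi-likelihood test with Benjamini-Hochberg adjustment over 11498 genes, 0 of the 32 were higher and 0 lower at an adjusted p under 0.05, where 0.252% and 0.33% of all genes were (0.583% in either direction). The adjusted p of the members ran from 0.0682 to 0.992. At an unadjusted p under 0.05, 8 of the 32 were higher in KO and 0 lower, beside 5.76% and 5.44% of all genes. In 28 of the 32 the fitted fold was above 1, against 50.2% of all genes. The median of the members' log2 fold changes was 0.24, against 0.0021 over all genes. In 2 of the 32, Ckap2l and Tacc3, every KO mouse was above every WT mouse, as in 2.88% of all genes, and in 0 members every KO mouse was below every WT mouse (2.93% of all genes). DESeq2 called 1 member, Ckap2l, higher (0.678% of all genes), and limma voom called 0 (0.235%).

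The count at an unadjusted p under 0.05 depended on single mice. It was 3 without KO mouse 1, 3 without WT mouse 2, 4 without WT mouse 3, 12 without WT mouse 4 and 14 without KO mouse 3. In these fits 6.27%, 4.53%, 4.44%, 5.41% and 5.68% of all genes were higher at that p, so the count of 3 of 32 without KO mouse 1 was near its background. The median log2 fold change was 0.136 without KO mouse 1, and 0.32 and 0.318 without WT mouse 4 or KO mouse 3. Members passed edgeR's test over all genes without WT mouse 4 (2 genes, Cenpe and Ckap2l), without KO mouse 3 (1 gene, Cenpe) and without a filter on low counts (3 genes, Ckap2l, Cenpe and Mki67).

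**Figure D2:**
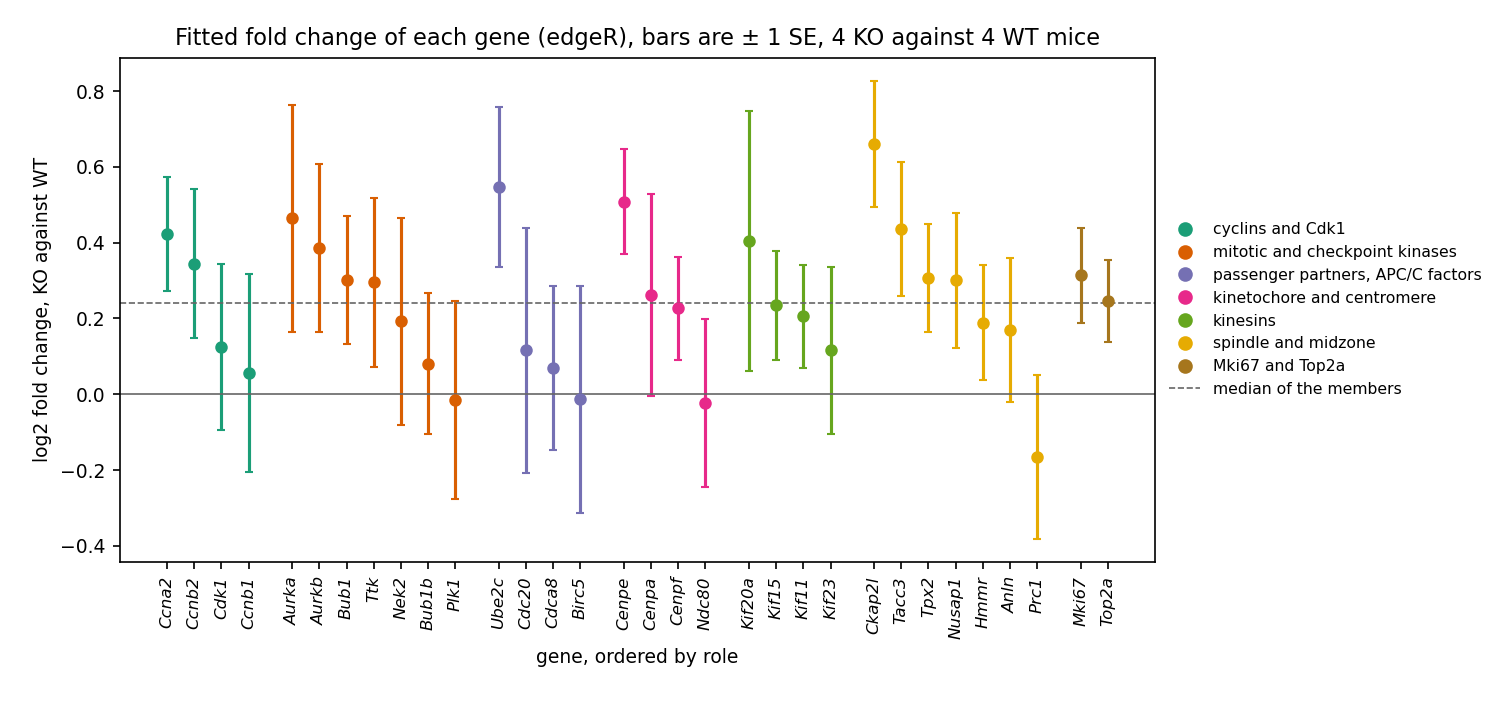
Log2 fold change of KO against WT (y axis) of each of the 32 genes (x axis, grouped by role and coloured), fitted by edgeR on 4 KO and 4 WT mice, with bars of 1 standard error to each side and a dashed line at the members' median of 0.24. Points lie above 0 for 28 genes, Ckap2l is the highest at 0.66 and Prc1 the lowest at -0.16.

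Among the cyclins and Cdk1, the cyclin A2 gene Ccna2, whose product acts from S phase into early mitosis, had the clearest difference. It was at 145, 111, 112 and 144 CPM in the WT mice, numbered 1 to 4 in this order throughout, and at 201, 170.4, 138 and 189 CPM in the KO mice, numbered likewise. KO mouse 3 lay below WT mice 1 and 4, so the groups overlapped, and the log2 fold change was 0.42 (SE 0.15, edgeR adjusted p = 0.254). Exons of Exosc9 on the opposite strand overlap 12.5% of the exon length of Ccna2, and the strand setting of the counting is not known. Ccnb2, a B-type cyclin gene, was at 71.2, 63.5, 64.6 and 86.2 CPM in WT and at 137, 80.5, 73.1 and 78.9 CPM in KO. Here KO mouse 1 stood alone, and the other 3 KO mice lay below WT mouse 4. Ccnb1, the other B-type cyclin gene, was at 23.4, 27.1, 15.5 and 29.2 CPM in WT and 25.4, 27.9, 19.6 and 29.7 CPM in KO, which overlapped almost fully. Cdk1, the kinase that all of these cyclins activate, was at 25.7, 32.4, 30.6 and 29.4 CPM in WT and 28.9, 32.4, 31.8 and 34.9 CPM in KO. It showed the smallest spread of the 4 genes, and KO mouse 1 was the lowest KO mouse for it. The highest mouse was KO mouse 1 for Ccna2 and Ccnb2, and KO mouse 4 for Ccnb1 and Cdk1. For Ccnb1 and Cdk1 the coefficient of variation among the KO mice was 17.2% and 7.75%. That was below edgeR's fitted variation between mice, 25.3% and 21.3%, so the order of mice in these genes is not read further.

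Mki67 and Top2a, the most abundant members, were highest in KO mouse 1 and, among the WT mice, in WT mouse 4. Mki67 (chromosome 7, 135689784 to 135716361, minus strand, mm10) was at 1921, 1574, 1578 and 2135 CPM in WT and at 2956, 2029, 2028 and 1953 CPM in KO. The fitted log2 difference was 0.31 (SE 0.125, edgeR adjusted p = 0.332). KO mouse 1 was far above all others, and the remaining KO mice lay between WT mice 1 and 4. Top2a (chromosome 11, 98992943 to 99024189, minus strand) was at 783, 735, 702 and 917 CPM in WT and at 1101, 874, 874 and 874 CPM in KO. Its fitted log2 difference was 0.25 (SE 0.108, edgeR adjusted p = 0.383). WT mouse 4 exceeded KO mice 2, 3 and 4 in both genes.

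The 7 kinases gave no member with an unadjusted p under 0.05. Aurka, the Aurora kinase of the spindle poles, was at 12.8 to 16.1 CPM in WT and at 15.6 to 26.4 CPM in KO, with KO mice 1 and 4 above 25 and KO mice 2 and 3 below WT mouse 4. Aurkb, the catalytic kinase of the chromosomal passenger complex, was at 25.5 to 51.1 CPM in WT, and KO mouse 1 at 71.8 CPM was the 1 KO mouse above that range. Ttk and Bub1, kinases of the spindle checkpoint, had log2 fold changes of 0.30 (SE 0.224) and 0.30 (SE 0.169). For Bub1, KO mouse 4 was highest at 96.2 CPM and 3 of 4 KO mice were above all WT mice (62.1 to 70.8 CPM). Bub1b, the checkpoint protein BubR1, and Nek2, a kinase of centrosome separation, overlapped widely, with log2 fold changes of 0.08 and 0.19. Plk1, the Polo kinase needed at nearly every step of mitosis, averaged 20.4 ± 3.53 CPM in the WT mice and 21.0 ± 2.72 CPM in the KO mice (SD, n = 4).

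Of the passenger partners and APC/C factors, Ube2c, the ubiquitin-conjugating enzyme of the APC/C, was at 46.6, 27.7, 35.3 and 50.5 CPM in WT and at 74.5, 47.6, 55.8 and 64.6 CPM in KO. KO mouse 2 alone lay within the WT range, and the log2 fold change was 0.55 (SE 0.211, edgeR adjusted p = 0.307). Its exons overlap those of the opposite-strand gene Tnnc2 over 22.8% of their length, and whether strand was used in counting is not stated in those sources. Birc5, which encodes survivin, varied most among the KO mice: 65.7 CPM in KO mouse 1, 30.7 in KO mouse 2, 21.7 in KO mouse 3 and 31.2 in KO mouse 4, against 26.2 to 45.8 CPM in WT. Cdca8, the passenger subunit borealin, and Cdc20, the APC/C activator, were highest in KO mouse 1 and WT mouse 4, at 112 and 107.5 CPM for Cdca8 and 24.7 and 25.0 CPM for Cdc20. For these 3 genes the difference between groups was small against the spread within each, with log2 fold changes of -0.01, 0.07 and 0.12 and SE of 0.3, 0.216 and 0.324.

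At the kinetochore, Cenpe, the motor that carries chromosomes to the spindle equator (chromosome 3, plus strand, 135212537 to 135273611), was found at 258, 224, 252 and 346 CPM in WT and at 461, 417, 315 and 356 CPM in KO. KO mouse 3 lay below WT mouse 4, and all 4 KO mice lay above the other 3 WT mice. The log2 fold change was 0.51 (SE 0.139, edgeR adjusted p = 0.104). Cenpf, a large kinetochore protein that accumulates in G2, was at 235 to 300.3 CPM in WT, and KO mice 1 and 2, at 371 and 334 CPM, were above it while KO mice 3 and 4 were not. Cenpa, the histone H3 variant of centromeres, was at 20.7 to 28.1 CPM in WT, below KO mice 1, 2 and 4 (37.0, 39.6 and 32.7 CPM) and above KO mouse 3 (18.8 CPM). Ndc80, which grips microtubules, was also lowest of all mice in KO mouse 3, at 35.4 CPM against 72.0 CPM in KO mouse 1.

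Of the 4 kinesins, 3 were highest in KO mouse 1. Kif11, the motor that separates spindle poles, Kif15, its partner in holding them apart, and Kif23, a subunit of centralspindlin at the midzone, reached 301, 193 and 78.6 CPM there, against WT means of 226 ± 41.5, 144 ± 20.2 and 50.2 ± 9.36 CPM (SD, n = 4). The other was Kif20a, a motor of cytokinesis, at 8.84, 29.1, 8.81 and 19.4 CPM in WT and 15.9, 13.6, 27.8 and 21.4 CPM in KO. It was high in WT mouse 2 and KO mouse 3, which were low for most other members, and 29.3% of its exon length overlaps exons of Cdc23 on the opposite strand.

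The spindle and midzone genes held the 2 members whose groups did not overlap. Ckap2l, a spindle protein of mitotic cells (chromosome 2, 129268210 to 129297212, minus strand), was at 78.9, 86.4, 89.7 and 119.6 CPM in WT and at 190.1, 153, 128 and 126 CPM in KO, 1.58-fold higher. Its log2 fold change of 0.66 (SE 0.167) was the largest of the members, with an adjusted p of 0.0682 by edgeR, 0.0167 by DESeq2 and 0.11 by limma voom. Tacc3, which stabilises spindle microtubules with clathrin (chromosome 5, plus strand, 33658128 to 33678995), was found at 51.1, 46.1, 56.8 and 53.1 CPM in WT and at 80.8, 73.6, 67.3 and 59.98 CPM in KO. The lowest KO mouse was just above the highest WT mouse, and the log2 fold change was 0.44 (SE 0.178, edgeR adjusted p = 0.337). Tpx2, the activator of Aurora A, was at 139, 104, 123 and 131 CPM in WT and 176, 162, 134 and 151 CPM in KO, with KO mouse 3 within the WT range (log2 fold change 0.31, SE 0.143, edgeR adjusted p = 0.419).

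Nusap1, Hmmr and Anln, which act in spindle bundling, spindle poles and the contractile ring, had log2 fold changes of 0.30 (SE 0.177), 0.19 (SE 0.152) and 0.17 (SE 0.189). Nusap1 was highest in KO mouse 1 at 261 CPM, against 104 to 196 CPM in WT, while Hmmr and Anln were highest in KO mouse 2. Prc1, which bundles microtubules at the midzone, was the member with the lowest fold, at -0.16 (SE 0.217). It was at 85.8 CPM in WT mouse 3 and at 44.5 to 46.1 CPM in the other WT mice, against 41.0 to 57.4 CPM in KO, and without WT mouse 3 its log2 fold change was 0.126. Exons of Rccd1 on the opposite strand overlap 11.1% of the exon length of Prc1.

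**Figure D3:**
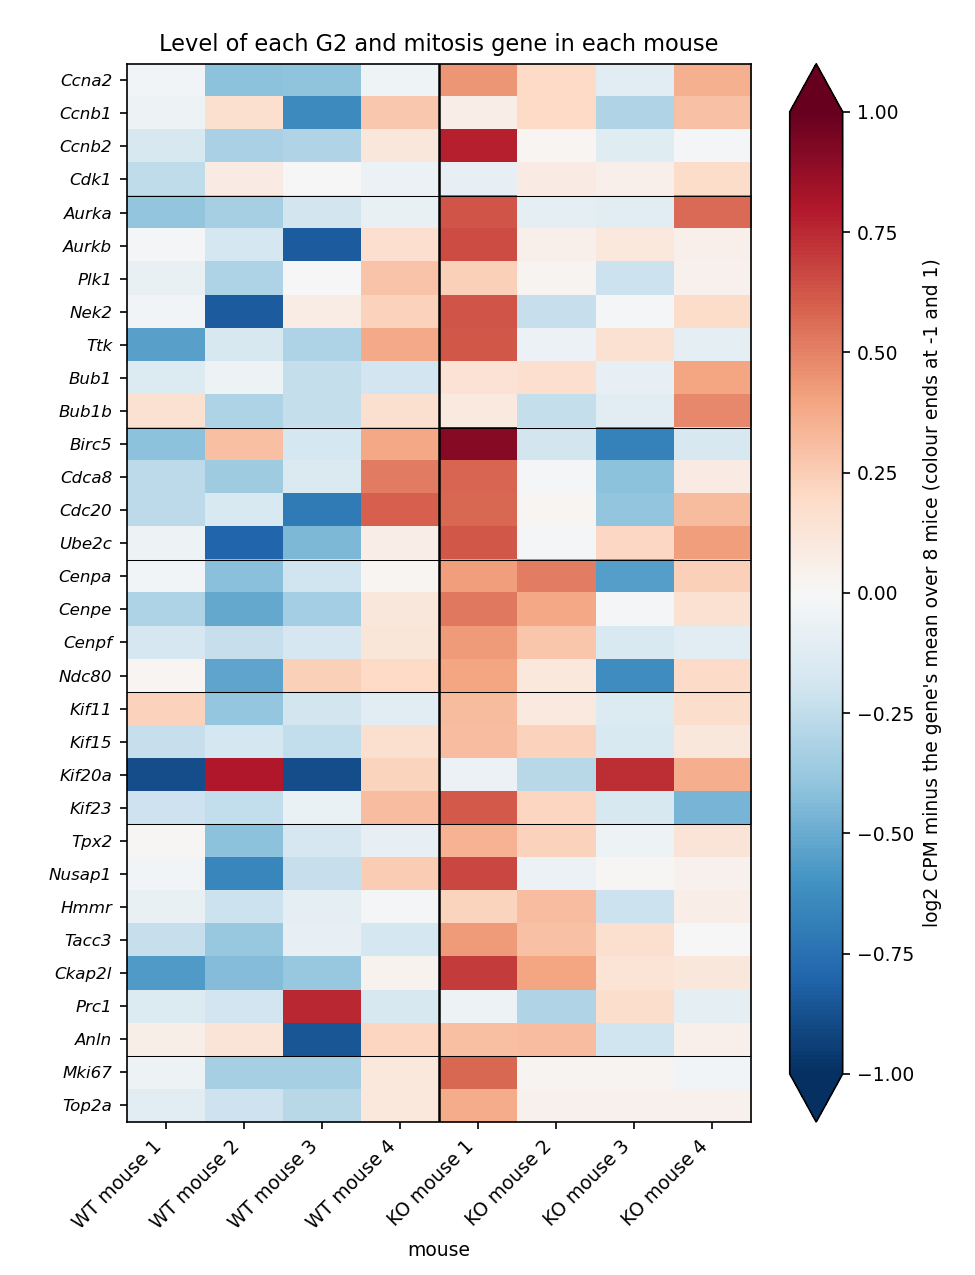
Level of each gene (rows, grouped by role) in each mouse (columns), as log2 CPM minus the gene's mean over the 8 mice, red for higher and blue for lower, with colours ending at -1 and 1. The KO mouse 1 column is the reddest and holds the highest value of all mice in 21 of 32 genes, and Kif20a and Prc1 go against the order of mice seen in most other rows.

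Within each genotype the mice ranged over more than the difference between the genotype means. A score was taken for each mouse as the mean over the 32 genes of log2 CPM, centred on the gene's mean over the 8 mice. The WT mice scored -0.163, -0.251, -0.251 and 0.128, and the KO mice 0.419, 0.084, -0.094 and 0.128. The KO mean was 0.134 ± 0.213 and the WT mean -0.134 ± 0.18 (SD, n = 4), a difference of 0.268. KO mouse 1 was highest, WT mouse 4 and KO mouse 4 were equal to 3 decimals, and WT mouse 4 was above KO mice 2 and 3. All 4 KO mice lay above WT mice 1, 2 and 3. Since the members were chosen with earlier results known, no test of the score is given.

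The same mice stood out gene by gene. Among the KO mice, KO mouse 1 was highest in 23 of the 32 members, a share of 71.9% against 28% of all genes tested, and KO mouse 3 was lowest in 18 (56.2%, against 24.5%). Among the WT mice, WT mouse 4 was highest in 23 (71.9%, against 23.6%) and WT mouse 2 lowest in 19 (59.4%, against 25.6%). KO mouse 1 exceeded every WT mouse in 25 of the 32 members, KO mouse 4 in 13, KO mouse 2 in 11 and KO mouse 3 in 3, where 19.9% to 23.8% of all genes did so in each KO mouse. KO mouse 1 was above KO mouse 3 in 29 of 32 members, with a median CPM ratio of 1.44 and a range from 0.57 for Kif20a to 3.03 for Birc5. WT mouse 4 was above WT mouse 1 in all but 5 members and above KO mouse 3 in 24. Members are not independent of each other, so these counts describe mice and not 32 separate observations.

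**Figure D4:**
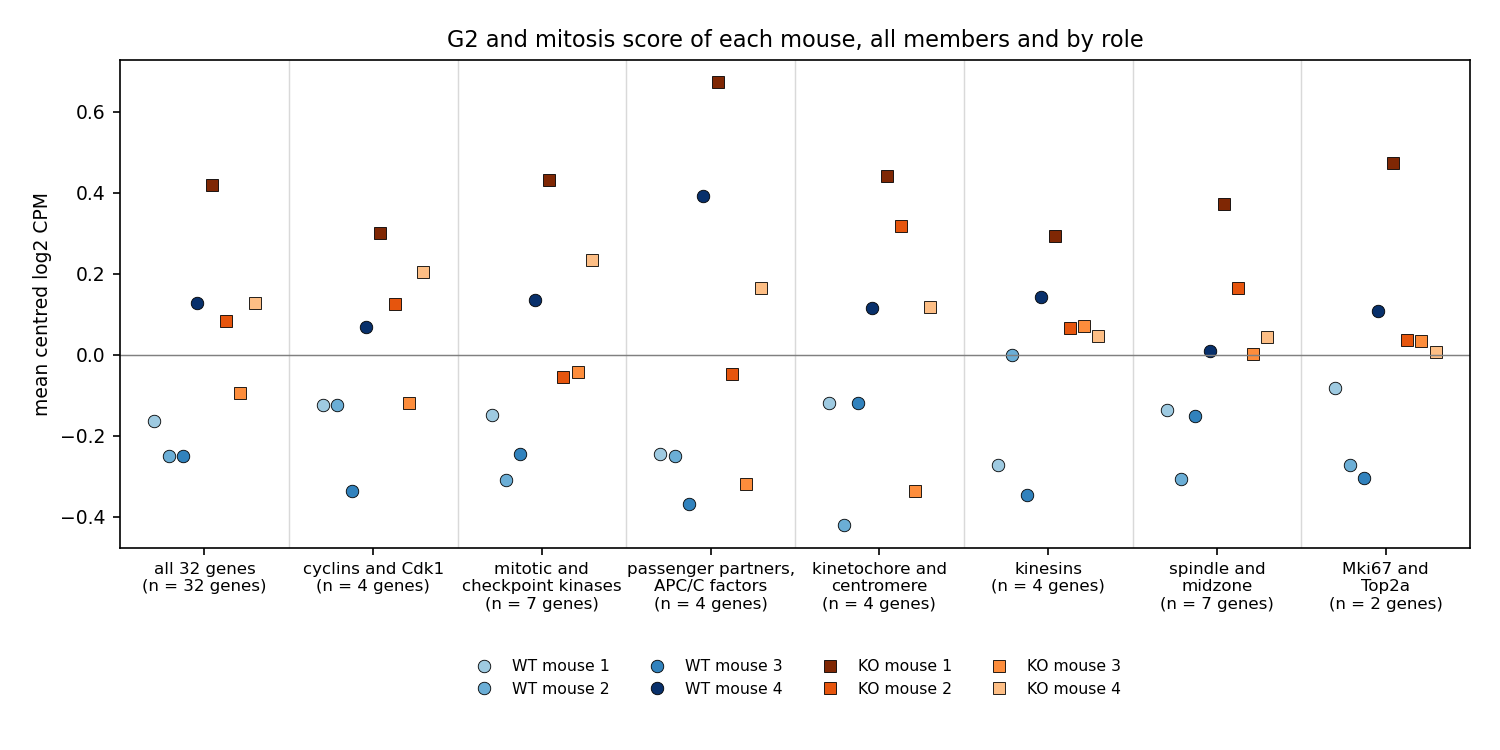
Mean centred log2 CPM (y axis) of each mouse (circles for WT, squares for KO, 1 colour per mouse) over all 32 genes and over each of the 7 role groups (x axis). KO mouse 1 is the highest mouse in all 7 groups, from 0.293 for the kinesins to 0.673 for the passenger partners and APC/C factors, and WT mouse 4 is the highest WT mouse in all 7.

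By role, the score of KO mouse 1 was highest in all 7 groups, from 0.293 for the kinesins to 0.673 for the passenger partners and APC/C factors. KO mouse 3 changed place between groups: it was at -0.337 for the kinetochore and centromere genes and -0.319 for the passenger partners and APC/C factors, but at 0.071 for the kinesins and 0.035 for Mki67 and Top2a. Its kinesin score rested on Kif20a alone, at 0.737, while Kif11, Kif15 and Kif23 were at -0.133, -0.156 and -0.164 in that mouse. KO mouse 2 was second among the KO mice for kinetochore genes (0.319) and lowest of them for the kinases (-0.054). KO mouse 4 was second among the KO mice for the cyclins and Cdk1 (0.204) and for the kinases (0.233). Without Mki67 and Top2a the score over 30 genes was 0.415 in KO mouse 1 and 0.13 in WT mouse 4.

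Depth did not follow the score in both groups. WT mouse 4, with the highest WT score, was the deepest WT library and WT mouse 2 the shallowest, while KO mouse 3, the deepest library of all, was the lowest KO mouse. With every library thinned to 3594315 counts, the scores of KO mouse 1, KO mouse 3 and WT mouse 4 were 0.406, -0.11 and 0.133. The summed stem cell markers were lowest where the score was highest within each genotype, at 4096 CPM in KO mouse 1 and 4742 CPM in WT mouse 4. Summed progenitor markers were at 205 CPM in KO mouse 1 and 251 CPM in WT mouse 4, within the range of the other mice. The ribosomal RNA precursor Rn45s took 2.49% of counts in KO mouse 1 and 2.39% in WT mouse 4, in a range of 2.37% to 4.85% over all mice. The part of these measures in the score was not tested.

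Genes of the same pathway outside the 32 were also highest in KO mouse 1, by their score in each of 5 lists, and WT mouse 4 was the highest WT mouse in all of these but condensin and cohesin, where WT mouse 1 was. Of the 136 genes in these lists, 135 were tested, and by edgeR 0 were called in either direction. At an unadjusted p under 0.05, 19 were higher in KO and 0 lower, beside 5.76% and 5.44% of all genes. DESeq2 called 2 higher, E2f4 and Sgol2, beside 0.678% of all genes. Of the 135, 95 had a fold above 1, against 50.2% of all genes, and their median log2 fold change was 0.16. The same shares are the background of the counts by list that follow, and 3 of 31 and 3 of 27 genes lie near them. The 36 other kinetochore and checkpoint genes had a median of 0.21, with 5 higher at an unadjusted p under 0.05. Sgol2, a shugoshin that protects cohesin at centromeres, was at 63.1, 35.0, 56.4 and 43.7 CPM in WT and 106, 87.6, 78.5 and 64.4 CPM in KO, without overlap (log2 fold change 0.74, SE 0.199, edgeR adjusted p = 0.0961). The 31 other spindle, kinesin and cytokinesis genes had a median of 0.27, with 3 higher, among them Troap, a spindle-associated protein gene, at 3.92 to 5.03 CPM in WT and 6.43 to 15.97 CPM in KO.

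Among 27 regulators of mitotic entry and exit the median was 0.01, with 14 folds above 1 and 3 genes higher at an unadjusted p under 0.05. Cdc25c, the phosphatase that activates Cdk1, led by p, with 10.05, 4.48, 5.29 and 7.10 CPM in WT and 16.1, 10.3, 14.8 and 17.4 CPM in KO (log2 fold change 1.06, SE 0.362, edgeR adjusted p = 0.236). Every KO mouse was above every WT mouse, on low counts. The 18 condensin and cohesin genes had a median of 0.07, with 3 higher, led by the cohesin subunit gene Stag1 with 546 ± 70.1 CPM in WT and 697 ± 44.1 CPM in KO (SD, n = 4, edgeR adjusted p = 0.161).

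The regulators of these promoters, 23 genes of the DREAM and MuvB complexes, the E2F family and NF-Y, had a median log2 fold change of 0.17, with 5 higher and 0 lower at an unadjusted p under 0.05. E2f4, the main E2F subunit of DREAM, was at 45.4, 46.7, 45.6 and 47.4 CPM in WT and at 63.7, 66.7, 75.1 and 75.2 CPM in KO. The WT mice were almost equal and all KO mice were higher, with a log2 fold change of 0.60 (SE 0.176) and an adjusted p of 0.138 by edgeR and 0.0183 by DESeq2. Tfdp1, the partner that E2F proteins need to bind DNA, had a log2 fold change of 0.45, and E2f2, an activating E2F, 0.63, with adjusted p of 0.138 and 0.301 by edgeR. Foxm1 and Mybl2, which encode the activators FoxM1 and B-Myb, had log2 fold changes of 0.21 (SE 0.2) and 0.17 (SE 0.334). The MuvB subunit gene Lin9 went the other way, at -0.32, with every KO mouse below every WT mouse and an edgeR adjusted p of 0.528.

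**Figure D5:**
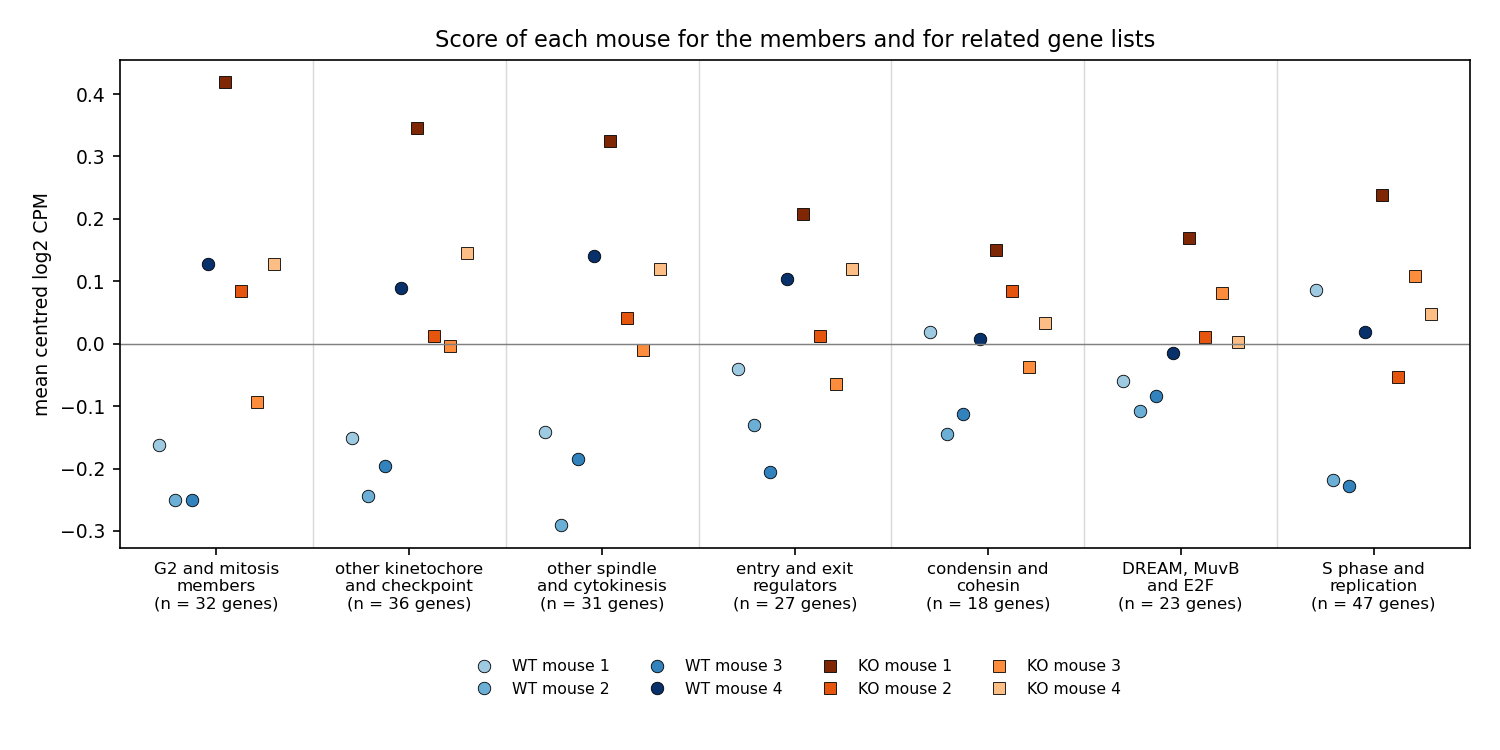
Mean centred log2 CPM (y axis) of each mouse (circles for WT, squares for KO) over the 32 members and over 6 related gene lists (x axis, with the number of genes). KO mouse 1 is highest in every list, WT mouse 4 is the highest WT mouse in all lists except condensin and cohesin and S phase, where WT mouse 1 is, and for the DREAM, MuvB and E2F list the KO mice (0.003 to 0.169) lie above the WT mice (-0.108 to -0.015).

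Genes of S phase and replication ordered the mice differently. Of 47 such genes, edgeR called 0, and 7 were higher and 0 lower at an unadjusted p under 0.05, beside 5.76% and 5.44% of all genes, led by the replicative helicase gene Mcm6 (log2 fold change 0.39, SE 0.118, edgeR adjusted p = 0.163). Over these genes the WT mice scored 0.086, -0.219, -0.228 and 0.019, and the KO mice 0.239, -0.054, 0.109 and 0.048. KO mouse 1 was highest in both programmes. KO mouse 3, the lowest KO mouse for mitosis, was second for S phase, KO mouse 2 was lowest of the KO mice, and WT mouse 1 took the place of WT mouse 4 as the highest WT mouse.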

How the data were processed

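RNA of haematopoietic stem cells from 4 WT and 4 KO mice was measured by RNA-seq. The authors deposited raw counts per gene symbol, made with STAR 2.4.0d-2 and htseq-count per the labels' protocols. Their processing notes, as submitted, name the build mm10. Which annotation and strand setting were used is not given in the sources used here. The cDNA was amplified without molecular identifiers, so counts are of reads. Total counts ran from 3594315 to 14872493, and no table held rows for unassigned reads.

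The deposited counts went unchanged into edgeR 4.0.16 (R 4.3.3), with the filterByExpr filter by group at a minimum count of 10 and a total of 15, TMM scaling, and the quasi-likelihood test with robust dispersion and genotype as the only term, two-sided. Benjamini-Hochberg adjustment covered the 11498 tested genes, and 0.05 was the threshold. CPM are on the TMM-adjusted scale, and scores used a prior count of 2. The standard error was the log2 fold change divided by the square root of F. Coordinates, union exon lengths and exon overlaps came from GENCODE M21 (GRCm38, the same assembly as mm10), and promoters from RefSeq on GRCm38.p6, 1-based. The procedure was tested on simulated data.

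The 32 members and all gene lists were chosen with earlier results of these data known. All members are named. Those given in every mouse had an unadjusted p under 0.05 or no overlap between groups, or are cyclin genes, Cdk1, Mki67 or Top2a; other members given so were chosen after their values were seen. From each related list the gene with the smallest p was taken, and other genes named from these lists were chosen after their values were seen. Printed promoters were those of the members with the smallest p and a CHR element in the 250 upstream bases, leaving out windows that overlap an annotated UTR. The alternatives tried were scaling by DESeq2 size factors or by library totals alone, no low-count filter, a filter of 5 CPM in 4 libraries, DESeq2 1.42.0, limma 3.58.1 voom with sample weights, thinned counts, the mouse number as a block, and omission of each library. For the score they were a prior count of 0.5, the log2 of summed CPM, and members with a count in every library. The last kept all 32 members, whose lowest count was 44, so it could not change the score.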

Additional observations from a re-analysis of the deposited data

Results flagged for a closer look

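Within each genotype, the highest or lowest of the 4 mice was compared with the gap to its nearest neighbour for the 32 genes and the score, 66 groups in all, with Dixon's 95% critical value of 0.829. In 8 groups 1 mouse stood apart by this measure; chance gives about 1 in 20 groups, and genes that vary together do not count as separate cases. KO mouse 1 stood above the other KO mice for Mki67 (2956 CPM, next 2029), Top2a (1101 CPM, next 874), Nusap1 (261 CPM, next 169), Ccnb2 (137 CPM, next 80.5) and Aurkb (71.8 CPM, next 48.9). WT mouse 4 stood above the other WT mice for Cenpf (300.3 CPM, next 246) and Kif15 (174 CPM, next 138). For Prc1 it was WT mouse 3, at 85.8 CPM with the next at 46.1. The score itself was within the critical value in both genotypes.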

How the results depend on the processing

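The scores kept their values to within 1 SD of their group in all alternatives run for them, and between 25 and 31 members had a fold above 1 in the 16 alternatives, with a median log2 fold change between 0.136 and 0.32. Members past the adjusted threshold numbered 0 as reported, 3 with no filter, 1 with DESeq2 and 0 to 2 when 1 library was left out, and genes of any kind 67 as reported, 199 with no filter, 154 with DESeq2 and 35 to 70 with 1 library left out. Members at an unadjusted p under 0.05 numbered 3 to 14 with 1 library left out. The call lost or gained by leaving out a library rests on fewer samples; the cause was not tested for the other settings.

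Of the 32 members, 22 kept the sign of their log2 fold change in all 16 alternatives, and 10 did not, so no direction is read from those 10. With 1 library left out they ran from -0.0208 to 0.286 (Anln), -0.442 to 0.25 (Birc5), -0.0599 to 0.162 (Bub1b), -0.101 to 0.214 (Ccnb1), -0.0705 to 0.467 (Cdc20), -0.144 to 0.316 (Cdca8), -0.0906 to 0.26 (Kif23), -0.178 to 0.203 (Ndc80), -0.099 to 0.102 (Plk1) and -0.276 to 0.126 (Prc1). Birc5 was at 0.00463 with no filter, 0.027 with DESeq2 and 0.0828 with thinned counts. Ndc80 was at 0.0413 with DESeq2, 0.00896 with limma voom, 0.0889 with thinned counts and 0.000312 with the replicate block. Plk1 was at 0.00169 with no filter, 0.0307 with DESeq2, 2.09e-05 with limma voom and 0.0294 with the replicate block.

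Over all tested genes, mice with the same number did not deviate together (correlations of -0.092, -0.014, -0.009 and -0.041 for numbers 1 to 4). The largest correlation, 0.142, was between WT mouse 4 and KO mouse 1. With 4 mice per group, such values cannot decide whether the numbers mark pairs, and the labels do not say. With the mouse number as a replicate block, 57 genes and 0 members passed, 8 members had an unadjusted p under 0.05, 30 had a fold above 1, and the median was 0.252.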
